A study of Mus musculus with 4 samples.

Results

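The genes described here encode the machinery of the endoplasmic reticulum (ER), where secreted and membrane proteins enter the secretory pathway, and the sensors that respond when that machinery is overloaded. They were chosen by name: 40 mouse genes, of 52636 Ensembl genes in the deposited table, whose identifiers map to those symbols in the GENCODE M21 annotation of mm10. All 40 were found. They were 11 ER chaperones and co-chaperones, 5 protein disulfide isomerases, 10 stress sensors and transcription factors, 10 parts of the translocation channel and signal peptidase, and 4 genes of ER-associated degradation.

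Whole lungs were taken from mouse embryos of the C57BL/6 strain at embryonic day 14.5, and their RNA was sequenced. The controls were wild type (2 libraries) and the Yap CKO embryos carried a conditional knockout of Yap restricted to the epithelium, per the series title (2 libraries). Yap is a transcriptional coactivator held in check by the Hippo pathway. The sources used here do not name the promoter that drove the deletion. They also leave unsaid whether the libraries of a group were made from different embryos or litters. The p-values therefore reflect no more than the spread among these 4 libraries. Between the controls that spread was not only technical, since they differed in the sex-linked genes given below. The Yap CKO libraries differed in the heart muscle genes given below (summed 11185 and 2081 normalized counts), and the reason was not tested. The tissue holds epithelium, mesenchyme, vessels and blood together, so for every gene below a change in the number of cells of a type and a change in RNA per cell cannot be told apart.

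Proteins destined for secretion are threaded through the SEC61 channel into the ER, where signal peptidase removes their signal peptide and chaperones and disulfide isomerases fold them. When unfolded protein accumulates, 3 sensors in the ER membrane respond: IRE1, whose 2 forms are encoded by Ern1 and Ern2, PERK, encoded by Eif2ak3, and ATF6. IRE1 cuts an intron from the mRNA of Xbp1 so that it encodes an active transcription factor, PERK slows translation and raises ATF4, and ATF6 is cleaved in the Golgi into a transcription factor. XBP1 and ATF6 switch on chaperone and degradation genes, ATF4 switches on amino acid supply genes, Ddit3 and Trib3. Ern1 is expressed in most tissues, whereas Ern2 is known from mucus-secreting epithelium of the gut and airways.

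The sequence that IRE1 cuts out is shown because its removal is the step that links IRE1 to the targets of XBP1. The deposited counts cannot show that removal. The sequence lies in the coding part of exon 4 of 5 of the Xbp1 transcript of 2129 bases in GENCODE M21. It is 26 bases long, at chr11:5524279-5524304 (GRCm38, plus strand). The capitals mark those 26 bases, with 20 bases of the unspliced exon in lower case on each side. Each end of the capitals lies in a 7-base loop closed by a 5-base stem.
Xbp1: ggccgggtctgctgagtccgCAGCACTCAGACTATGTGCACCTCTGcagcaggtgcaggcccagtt
A count per gene sums cut and uncut Xbp1 mRNA, so the Xbp1 values below are amounts of mRNA and not of its cut form.

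The DNA element through which ATF6 and XBP1 act on chaperone genes, the ER stress response element (ERSE), was searched as CCAAT and CCACG separated by any 9 bases, on both strands. RefSeq promoter windows of 300 bases (GRCm38.p6, 250 before to 50 after a start) were at hand for 32 of the 40 genes, and 8 of these 32 (25.0%) held a match, against 0.137% of 27025 genes with a window. The matches are shown because they mark which members held an exact match in the window searched. Inexact copies, copies outside the window and genes without a window were not covered. Capitals mark the fixed letters, each read along the strand of its match.
Hspa5, chr2:34772025-34772043, plus strand: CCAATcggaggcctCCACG
Hsp90b1, chr10:86705533-86705551, plus strand: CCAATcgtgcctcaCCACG
Hsp90b1, chr10:86705638-86705656, minus strand: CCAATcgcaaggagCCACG
Calr, chr8:84847075-84847093, plus strand: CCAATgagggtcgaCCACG
Canx, chr11:50325800-50325818, minus strand: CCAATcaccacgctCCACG
Dnajc3, chr14:118937827-118937845, plus strand: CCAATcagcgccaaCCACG
Creld2, chr15:88819520-88819538, minus strand: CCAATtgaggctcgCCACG
Pdia6, chr12:17266491-17266509, plus strand: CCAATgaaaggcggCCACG
Syvn1, chr19:6046532-6046550, plus strand: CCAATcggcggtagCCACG
The matches began between 212 and 44 bases before the start. Of the 250 bases before the RefSeq start of Hspa5, the most studied ERSE gene, 62.4% were G or C, and the single exact match is capitalised in the window chr2:34771840-34772089 (plus strand).
Hspa5 window: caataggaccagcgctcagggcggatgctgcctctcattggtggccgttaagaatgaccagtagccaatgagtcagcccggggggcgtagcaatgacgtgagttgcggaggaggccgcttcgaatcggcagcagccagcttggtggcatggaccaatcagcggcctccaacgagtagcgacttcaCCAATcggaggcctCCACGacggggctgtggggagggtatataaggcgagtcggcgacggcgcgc
A second form of the element, ERSE-II (ATTGG and CCACG separated by any 1 base), was matched in Dnajb11 and Herpud1 (6.25% of 32, against 0.0444% of all genes). A CARE core (TGATGCAA), through which ATF4 acts, was matched in Herpud1 (3.12% against 1.03%), and a UPRE core (TGACGTGG), bound by XBP1, in 0 of 32 (0.714% of all genes). No match overlapped another. These are matches of letters in a short window and say nothing about binding in these lungs.

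**Figure D1:**
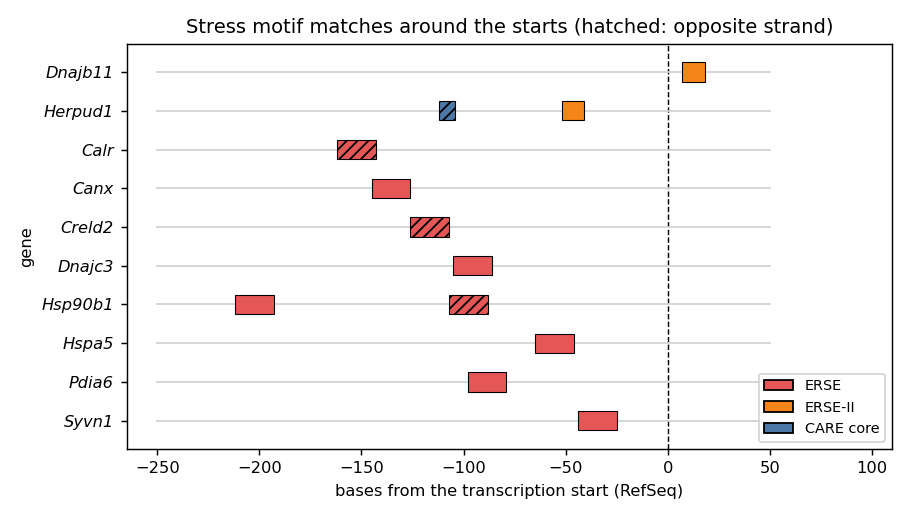
Position of each motif match (horizontal axis, bases from the RefSeq transcription start, dashed line) in the 10 member genes that held one. Grey lines are the windows searched, colours the motif, and hatching the strand opposite to the gene; the ERSE matches lie between 212 and 44 bases before the start.

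The values are normalized read counts. Depth was 17756301 to 21333878 recovered reads per library, and 3 reads, the most that a count of 0 allows, correspond to 2.8 to 3.51 normalized counts. The lung markers listed for this study were present in all libraries, at a summed 18293 to 19867 normalized counts with 8 of 8 genes read. Of the 8, limma called 2 higher and 2 lower in Yap CKO at an adjusted p under 0.05. Their log2 changes ran from -1.862 to 1.069, so the sum hides changes in both directions. Yap1 stood at 5686 and 3467 in the controls and 3209 and 4483 in Yap CKO (adjusted p = 0.683), so that in whole lung it does not check the labels. Libraries within a group differed in ways the groups do not explain. Xist was at 42.6 in control 1 and 42729 to 50045 in the others, and Ddx3y was at 1726 in control 1 and 5.77 to 16.4 in the others. The 15 heart muscle genes summed to 1830 and 50071 in controls 1 and 2 and 11185 and 2081 in Yap CKO 1 and 2. Their part in the results below was not tested beyond leaving out each library in turn. Over all 19472 genes tested, those with a mean of at least 10, limma called 231 higher (1.19%) and 223 lower (1.15%) in Yap CKO at an adjusted p under 0.05, together 2.33%.

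Of the 40 genes, 39 could be tested and 1 was called: Ern2 rose, none fell and 38 did not pass. Agr3, a disulfide isomerase gene, had 0 reads in all 4 libraries. The median log2 change of the 39 was 0.004, against -0.005 over all genes tested, with 20 above and 19 below 0. In 33 of the 39 the change lay within 0.25 of 0 on the log2 scale, compared with 60.0% of all genes tested. At an unadjusted p under 0.05 stood 4 members (Ern2, Ern1, Creb3l4 and Spcs1), where 18.9% of all genes did so. The groups did not overlap for 15 members, 7 higher and 8 lower in Yap CKO, where 25.2% and 25.6% of all genes did so. All changes are on the log2(normalized count + 1) scale, Yap CKO minus control, which understates the change of low genes.

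The summed mRNA of the 40 genes was 171035 and 179950 normalized counts in controls 1 and 2, and 172997 and 174977 in Yap CKO 1 and 2. Both Yap CKO values lay between the controls, and the means differed by -0.858%. As a share of each library's total the sums were 0.829%, 0.867%, 0.876% and 0.880% in the same order. By share both Yap CKO libraries thus stood above both controls, so the reading depends on the scaling. In normalized counts, the sum of the disulfide isomerase genes differed by 1.46%, of degradation genes by 0.272% and of chaperones by -0.157%. That of translocation and signal peptidase genes differed by -4.23%, and of sensors and transcription factors by -4.54%. By share, the isomerase, degradation and chaperone sums were higher in both Yap CKO libraries than in both controls, and the others overlapped.

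These genes were measured with more precision than most. Their median level was 1635 normalized counts, against 364 over all genes tested. The median replicate SD on the log2 scale was 0.0947 among controls and 0.0421 in Yap CKO, against 0.140 and 0.0985 over all genes. In 28 of the 39 genes the 95% interval of the change, taken gene by gene, lay within 0.5 of 0, so that a change beyond 1.41-fold either way fell outside it. The same held for 38.7% of all genes. In 36 the interval lay within 1 of 0, and the others were Ern2, Creb3l4 and Trib3. Control 2 was the highest of the 4 libraries for 21 of the 39 genes, compared with 26.6% of all genes, and the median change was 0.042 without control 2 and -0.043 without control 1.

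**Figure D2:**
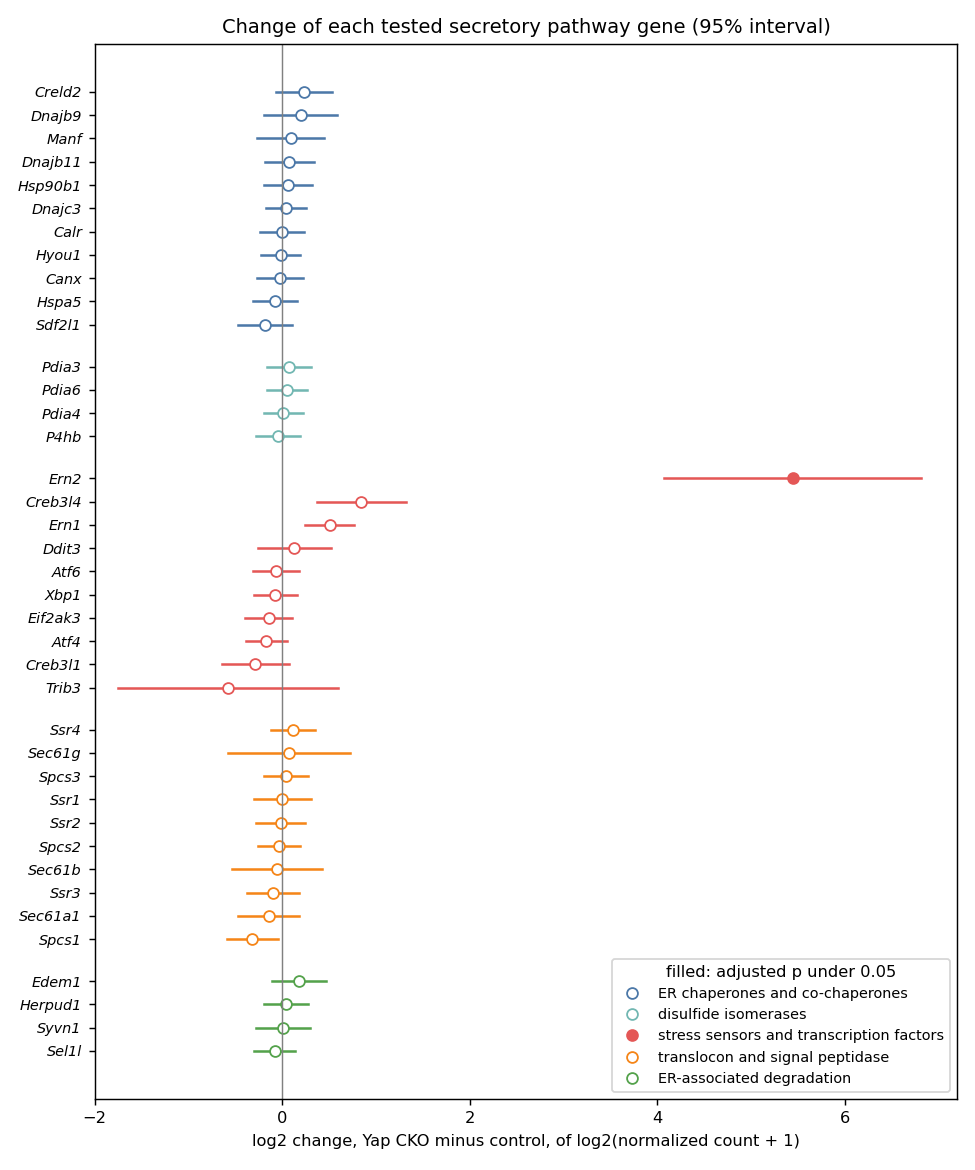
The horizontal axis gives the log2 change from control to Yap CKO for each of the 39 tested genes, with its 95% interval from limma, coloured by role; a filled point marks an adjusted p under 0.05. Ern2 is the single filled point, and 33 of the points lie within 0.25 of 0.

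The stress sensors differed from each other. Ern2, which encodes the IRE1 form of mucous epithelium (IRE1 beta; ENSMUSG00000030866, chromosome 7, 122169893 to 122186207, minus strand), had 0 normalized counts in control 1 and 1.17 in control 2. Yap CKO 1 had 77.9 and Yap CKO 2 had 51.3. The controls were at or near the floor of detection and both Yap CKO libraries were clearly above it. The log2 change was 5.45 ± 0.57 (SE; 95% interval 4.08 to 6.82), with an adjusted p of 0.0122 by limma. In reads, 136 were counted over both Yap CKO libraries and 1 over both controls, a ratio of 121 per normalized depth with a 95% counting interval of 21.4 to 4830. Ern2 passed the filter on low genes only through its Yap CKO values. The direction was the same in all 15 alternatives that tested it, but the call ended without that filter (adjusted p = 0.0546), without the variance trend (0.0867), and without Yap CKO 1 (0.228) or Yap CKO 2 (0.119).

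Ern1, which encodes the widely expressed form, IRE1 alpha (chromosome 11, 106394650 to 106487852, minus strand), had 529 and 586 normalized counts in the controls, against 794 and 790 in the Yap CKO libraries. Every Yap CKO value was above every control value. The log2 change was 0.51 ± 0.11 (95% interval 0.25 to 0.77), which did not pass with limma (adjusted p = 0.0766) or edgeR (0.089) and passed with DESeq2 (0.033). Ern2 was the only member called by edgeR, which called 2.07% of all genes, and Ern1 and Ern2 were the only ones called by DESeq2, which called 5.33%. It also passed without control 1 (0.0417) or control 2 (0.00526), when 12.6% of all genes were called in each case. Per length Ern1 remained the more abundant: over its exons it went from a mean of 68.2 to 96.9 normalized counts per kilobase, and Ern2 from 0.197 to 21.8.

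The other sensors did not pass. Eif2ak3, which encodes PERK (chromosome 6, 70844515 to 70905245, plus strand), stood at 592 and 589 in controls and 536 and 533 in Yap CKO. Its groups were apart, with Yap CKO lower, and the log2 change was -0.14 (95% interval -0.40 to 0.11, adjusted p = 0.523). Atf6 (chromosome 1, 170704674 to 170867771, minus strand) stood at 1304 and 1454 in controls and 1286 and 1345 in Yap CKO. Its groups overlapped and its change of -0.07 (adjusted p = 0.774) became 0.012 without control 2.

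Neither Xbp1 nor Atf4, the transcription factors under IRE1 and PERK, passed the test. Xbp1 (chromosome 11, 5520659 to 5525893, plus strand) stood at 2682 and 2949 in controls and 2627 and 2728 in Yap CKO, with overlapping groups and a log2 change of -0.07 (95% interval -0.30 to 0.15, adjusted p = 0.735). Atf4 (chromosome 15, 80255184 to 80257541, plus strand) stood at 2815 and 2838 in controls and at 2643 and 2398 in Yap CKO. Both Yap CKO values were lower, by -0.17 on the log2 scale (95% interval -0.39 to 0.06, adjusted p = 0.398). ATF4 protein is set mainly by translation, which mRNA counts do not measure.

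Ddit3, which encodes the stress factor CHOP (chromosome 10, 127290774 to 127296288, plus strand), stood at 187 and 172 in controls and 186 and 208 in Yap CKO. The groups overlapped (log2 change 0.13, 95% interval -0.26 to 0.52, adjusted p = 0.716). Ddit3 overlaps Mars on the opposite strand, with a mean of 1555, and where counting did not use strand their reads cannot be told apart. Trib3, a pseudokinase gene induced by ATF4 and CHOP (chromosome 2, 152337422 to 152344032, minus strand), stood at 70.7 and 26.9 in controls and at 34.6 and 24.2 in Yap CKO. Control 1 stood apart from the other 3 libraries. The log2 change of -0.58 (adjusted p = 0.582) was 0.104 without control 1 (0.897) and -1.26 without control 2 (0.0221).

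Of the CREB3 family, ER-anchored factors that are cleaved like ATF6, Creb3l4 and Creb3l1 differed from control in opposite directions. Neither passed limma's test on all 4 libraries. Creb3l4 (chromosome 3, 90237500 to 90243512, minus strand) stood at 83.3 and 71.3 in controls and at 142 and 136 in Yap CKO. Both Yap CKO values exceeded both controls (log2 change 0.84 ± 0.20, 95% interval 0.37 to 1.32, adjusted p = 0.0931). The change was 0.954 without control 1 and 0.733 without control 2. Creb3l1, known for collagen secretion in bone-forming cells and fibroblasts (chromosome 2, 91982328 to 92024502, minus strand), stood at 1348 and 1490 in controls and 1337 and 1012 in Yap CKO. The lower mean came mainly from Yap CKO 2 (log2 change -0.28, adjusted p = 0.365).

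**Figure D3:**
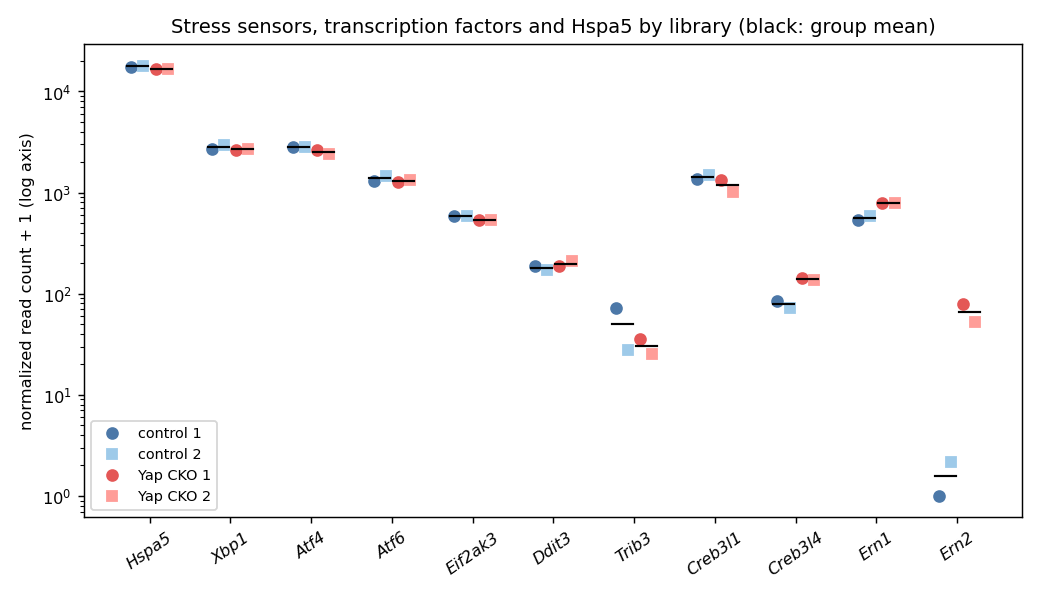
Normalized read count + 1 (log axis) of the 10 sensors and transcription factors and of Hspa5 in each library, with black bars at the group means. Ern2 stands at 0 and 1.17 in the controls and 77.9 and 51.3 in Yap CKO, Ern1 and Creb3l4 are higher in both Yap CKO libraries, and Hspa5, Xbp1 and Atf6 lie close together.

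None of the 11 chaperone genes passed, and all 11 lay within 0.25 of 0. Hspa5 encodes BiP, the main HSP70 chaperone of the ER and the usual readout of ER stress (chromosome 2, 34771970 to 34777547, plus strand). It stood at 17340 and 18073 in controls and at 16785 and 16735 in Yap CKO. Both Yap CKO values were slightly below the controls (log2 change -0.08, 95% interval -0.32 to 0.16, adjusted p = 0.72), which places a rise above the interval's end of 1.12-fold outside it. Hsp90b1, the ER form of HSP90, was at 18687 to 20505 in controls and 19976 to 20952 in Yap CKO. The lectin chaperones Calr and Canx changed by -0.002 and -0.03.

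None of the co-chaperone genes passed. Log2 changes were 0.20 for Dnajb9, 0.08 for Dnajb11, 0.04 for Dnajc3, -0.01 for the exchange factor gene Hyou1 and -0.18 for Sdf2l1, with adjusted p from 0.468 (Sdf2l1) to 0.947 (Hyou1). Sdf2l1 stood at 406 and 417.5 in controls and 366 and 359 in Yap CKO, so its groups were apart. Dnajb9, a classical XBP1 target, stood at 328.5 and 428 in controls and 451 and 410 in Yap CKO, with overlapping groups (95% interval -0.19 to 0.58, adjusted p = 0.569). Creld2, a stress-induced ER protein gene, stood at 490 and 461 in controls and 518 and 602 in Yap CKO. It was the chaperone-group gene with the largest difference and its groups were apart (0.23, 95% interval -0.07 to 0.54, adjusted p = 0.383). Manf, a secreted stress-induced factor, differed by 0.09, and the gene overlaps Dcaf1 and Rbm15b, both more abundant.

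Genes with and without an ERSE match were set side by side, as a description. The 8 genes with a match had a median log2 change of 0.023 (range -0.079 to 0.233) and 0 were called. The 23 tested genes with a window and no match had a median of 0.004 (range -0.578 to 0.844) and 0 were called. Ern2 had no window and is in neither group.

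Among the disulfide isomerases, which form and shuffle disulfide bonds, the 4 tested genes moved by -0.043 to 0.073 on the log2 scale and 0 passed. P4hb, which encodes PDI, was at 16070 to 16265 in controls and 15540 to 15838 in Yap CKO. Pdia3, the partner of the lectin chaperones, differed by 0.07 (adjusted p = 0.74), Pdia6 by 0.05 and Pdia4 by 0.01. The fifth gene, Agr3 (chromosome 12, 35925620 to 35949736, plus strand), had no reads, and its neighbour and paralog Agr2 is described below.

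None of the 10 translocation and signal peptidase genes passed. The SEC61 channel genes Sec61a1, Sec61b and Sec61g changed by -0.14, -0.05 and 0.07, the last at only 65.4 to 97.9 normalized counts. The 4 genes of the translocon-associated protein complex, Ssr1 to Ssr4, changed by 0.004, -0.02, -0.10 and 0.11. Ssr4 is X-linked and stood at 990 in control 1 and 993 in control 2, the libraries between which Xist differed. Of the signal peptidase subunits, Spcs2 and Spcs3 changed by -0.03 and 0.04. Spcs1 (chromosome 14, 30999826 to 31001672, minus strand) stood at 1164 and 1250 in controls and at 900 and 1040 in Yap CKO. Both Yap CKO values were lower (log2 change -0.32 ± 0.11, 95% interval -0.59 to -0.05, unadjusted p = 0.0272), and the gene did not pass limma's adjustment (adjusted p = 0.202). It overlaps Glt8d1, at a mean of 1422 on the opposite strand, from which unstranded counting could not separate it.

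In this group control 2 was well above control 1. Their sums over the 10 genes were 41555 and 34925, and the Yap CKO sums of 35970 and 37278 lay between them. The median change of -0.025 was 0.071 without control 2 and -0.144 without control 1, so no direction can be read for the group.

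None of the 4 genes of ER-associated degradation passed. Sel1l and Syvn1, which encode the ubiquitin ligase complex that exports misfolded protein, changed by -0.08 and 0.01. Edem1, which sorts misfolded glycoproteins, differed by 0.18 (adjusted p = 0.484) and Herpud1, a scaffold of the complex induced under stress, by 0.04 (adjusted p = 0.843). Syvn1 overlaps Mrpl49 on the opposite strand.

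Levels per length spread over more than the changes did. In mean normalized counts per kilobase of exon over the 4 libraries, P4hb was highest (5567 ± 109 SD, n = 4), followed by Pdia3 (5111 ± 178), Hsp90b1 (4968 ± 243), Calr (4736 ± 132) and Hspa5 (4075 ± 147). Pdia3 overlapped Hsp90b1, and Hsp90b1 overlapped Calr, in their values over the libraries, whereas P4hb stood above Pdia3 and Calr above Hspa5 in every library. Xbp1 was at 846 and Atf4 at 1134, while the sensors were low: 146 for Atf6, 93.4 for Eif2ak3 and 82.6 for Ern1. The lowest of the 39 were Sec61g (32.0), Trib3 (18.4) and Ern2 (11.0). The Ern2 mean combines 0.197 in control and 21.8 in Yap CKO, and in Yap CKO it was above Trib3 (13.85). Exon length from the annotation can overstate the length of the transcripts in use, which lowers these values for some genes.

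**Figure D4:**
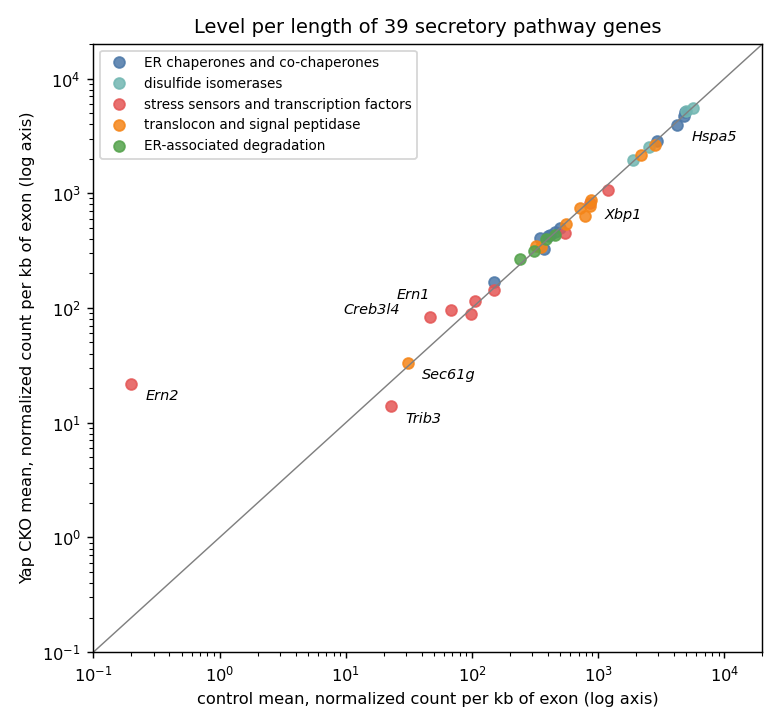
Mean normalized count per kilobase of exon in control (horizontal, log axis) and Yap CKO (vertical, log axis) for the 39 tested genes, coloured by role, with the line of equality in grey. Ern2 lies far above the line, at 0.197 and 21.8, Ern1 and Creb3l4 lie slightly above it, and Trib3 lies below it.

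Other genes of the pathway were read from 8 lists, 153 genes in all. Of these 145 were tested, 3 rose (Agr2, Sec11c and Bhlha15) and 0 fell, where 2.33% of all genes were called, so the count itself does not set these lists apart. Agr2, a disulfide isomerase needed to fold mucins (chromosome 12, 35992907 to 36004087, plus strand), stood at 0.969 and 4.68 in controls and at 419 and 236 in Yap CKO. As with Ern2, the controls were near the floor and both Yap CKO libraries far above it (log2 change 6.56 ± 0.56, adjusted p = 0.00669). Its control mean too was below the filter, so it was tested only through its Yap CKO values. In reads the ratio was 123, with a 95% counting interval of 52.5 to 380. The call ended without the trend (0.0881), without Yap CKO 1 (0.175) or without Yap CKO 2 (0.0819). The other 16 tested isomerase and oxidase genes did not pass (median of the 17, 0.07), among them the oxidase gene Ero1l (-0.36, adjusted p = 0.247).

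Sec11c, 1 of the 2 genes for the catalytic subunit of signal peptidase (chromosome 18, 65800515 to 65817684, plus strand), stood at 318 and 310 in controls and at 659.5 and 684 in Yap CKO. The replicates of each group were close and the groups far apart (log2 change 1.10 ± 0.11, adjusted p = 0.0118). Its paralog Sec11a, at 1488 and 1641 in controls and 1614 and 1617 in Yap CKO, did not pass (0.05, adjusted p = 0.829). The Sec11c call was lost without the trend (0.0881), and when Yap CKO 1 (0.225) or Yap CKO 2 (0.155) was left out. The other 14 genes of this list, of signal recognition and translocation, did not pass, with Sec61a2 at 0.29 (adjusted p = 0.206), Srp19 at 0.33 (0.263) and a median for the 15 of 0.048.

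Bhlha15, which encodes MIST1, a transcription factor that XBP1 induces and that scales up secretory cells (chromosome 5, 144190286 to 144194441, plus strand), stood at 13.6 and 15.2 in controls and at 82.7 and 58.7 in Yap CKO. Both Yap CKO values were several times the controls (log2 change 2.20 ± 0.32, adjusted p = 0.0273). This call was lost when the filter (0.0857) or the trend (0.0881) was dropped, when Yap CKO 1 (0.393) or Yap CKO 2 (0.206) was left out, and with the replicate number as a block (0.0501). The other 13 stress regulators tested did not pass, among them Wfs1 (-0.45, adjusted p = 0.201), Atf6b (-0.27, 0.211) and Creb3l2 (-0.22, 0.368).

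Of 28 targets of ATF4 and the PERK branch, many of which supply amino acids or charge tRNAs with them, 25 were tested and 0 passed with limma (7 at an unadjusted p under 0.05, where 18.9% of all genes were, 0 with edgeR, and Psat1, Stc2 and Vldlr with DESeq2). Of the 25, 22 lay below 0 and the median was -0.214, or -0.152 with libraries scaled to equal totals. In 13 of the 25 both Yap CKO values lay below both controls, a larger share than the 25.6% of all genes. Vldlr, a lipoprotein receptor gene, stood at 1224 and 1027 in controls and 727 and 762.5 in Yap CKO (-0.59, adjusted p = 0.0647). Psat1, of serine synthesis, stood at 4005 and 4320 in controls and 2754 and 3367 in Yap CKO (-0.45, adjusted p = 0.119). Asns, which makes asparagine, stood at 1231 and 1152 in controls and 874 and 964 in Yap CKO (-0.38, adjusted p = 0.127). Stc2, a secreted glycoprotein gene, stood at 397 in control 1 and 180 in control 2, and at 129 and 132 in Yap CKO (-1.03, adjusted p = 0.189). Control 1 was the library with high Trib3, Stc2, Ddit4 (3179 against 1222 to 1541 in the others) and Slc7a11 (465 against 105 to 348). Other genes of the list, among them Psat1, Slc7a5 and Aars, were highest in control 2. The median of the list was -0.251 without control 1 and -0.192 without control 2. Without control 2, 7 of the 25 fell (6.48% of all genes), and without control 1, 3 fell (6.17%). Without Yap CKO 1 or Yap CKO 2, when 2 and 7 of all genes were called, 0 did.

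Little else on the pathway stood out. None of 24 genes of transport between ER and Golgi passed with limma (4 at an unadjusted p under 0.05, 0 with edgeR, Sec24d with DESeq2). Their median was -0.066, with 17 of the 24 below 0. It was -0.144 without control 1 and 0.002 without control 2. Sec24d, a cargo adaptor of COPII vesicles, stood at 1832 and 2259 in controls and 1394 and 1343 in Yap CKO (-0.57, adjusted p = 0.0746), and Sec24a at 1102 and 1340 in controls and 831 and 917 in Yap CKO (-0.48, adjusted p = 0.119). None of 17 further chaperone and proline isomerase genes passed with limma (4 at an unadjusted p under 0.05, 0 with edgeR, Serpinh1 with DESeq2), with the collagen chaperone gene Serpinh1 at -0.37 (adjusted p = 0.146) and Dnajc1 at 0.36 (0.119). None of 17 further degradation genes and none of 16 N-glycosylation genes passed with limma, edgeR or DESeq2, and in both lists 0 had an unadjusted p under 0.05 (medians 0.046 and -0.039).

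**Figure D5:**
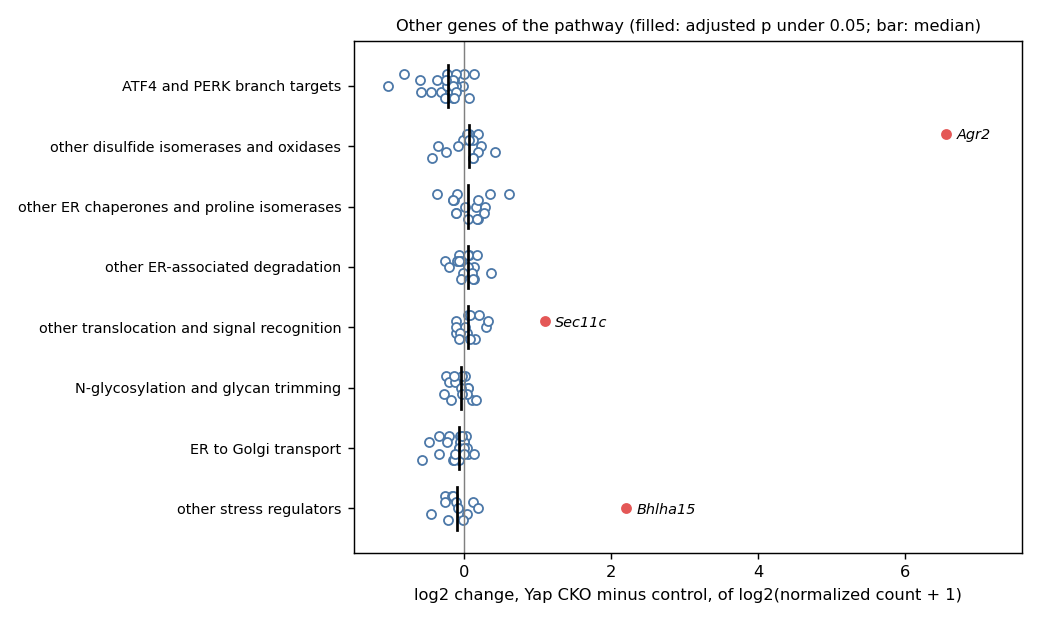
Each point is a tested gene of the 8 other lists of the pathway, at its log2 change from control to Yap CKO (horizontal axis). Filled points passed limma's test at 0.05, and vertical bars mark the medians. Agr2 (6.56), Bhlha15 (2.20) and Sec11c (1.10) are filled, and the ATF4 and PERK targets center on -0.214.

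The genes that rose were read beside markers of secretory cells. The 12 markers of intestinal goblet and other gut secretory cells, a list that holds Agr2, summed to 154 and 111 normalized counts in controls 1 and 2, and to 4105 and 2793 in Yap CKO 1 and 2. Of the 12, all with reads, 10 were tested and called higher. For 6 of these 10 the control mean was below the filter, so they could be tested only because they were high in Yap CKO; the other 4 had control means above it. Yap CKO 1 was above Yap CKO 2 in this sum, as in Ern2, Agr2 and Bhlha15, but not in Sec11c. The same order held in the hepatocyte, alveolar type 2, ciliated, cartilage and bone, and heart muscle sums. It did not hold in the lung, pancreatic acinar and plasma cell sums. The order was thus not particular to the list of goblet and gut secretory markers. Spdef, a transcription factor of goblet cells in gut and airway that is in the same list, rose from 14.5 and 16.4 in controls to 175 and 172 in Yap CKO (log2 change 3.41, adjusted p = 0.00507). Hepatocyte markers summed to 57.2 and 139 in controls and 1704 and 950 in Yap CKO, with 12 of 12 read. Of 5 tested, 4 were called higher, and 3 of the 5 could be tested only because of their Yap CKO values.

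Alveolar type 2 cell markers, of the epithelium that secretes surfactant, summed to 3510 and 3978 in controls and 10936 and 9384 in Yap CKO. Of 7 tested, 5 were called higher, where 1.19% of all genes were. Their log2 changes ran from -0.318 to 3.964, with 1 below 0. Pancreatic acinar markers, of another cell type rich in Bhlha15, summed to 67.8 to 69.8 in controls and 88.5 to 88.6 in Yap CKO, with Cela2a, Prss1 and Amy2a1 at 0 in all libraries. Of these 9 markers 2 were tested and 0 called, with log2 changes of -0.098 and 0.51. Ciliated cell markers (533 to 612) and plasma cell markers (212 to 240) overlapped between groups in their sums, and none of their tested genes (5 and 2) passed limma's test over all genes. The ciliated sum hides differences in both directions, with log2 changes of -0.978 to 0.692. Of the 5, 2 were higher and 2 lower with groups apart, where 25.2% and 25.6% of all genes did so. Cartilage and bone markers summed to 2256 and 1949 in controls and 3248 and 2450 in Yap CKO, with 0 of 6 called. The part of any of these cell types in the changes of Ern2, Agr2, Bhlha15, Sec11c, Ern1 and Creb3l4 was not tested.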

How the data were processed

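RNA of 4 whole embryonic lung samples (2 control, 2 Yap CKO) was extracted on RNeasy columns and sequenced by BGI, per the labels. The authors deposited 1 table of normalized read counts, a non-negative signal. Build mm10 and the tools featureCounts 1.5.0-p1, Bowtie2 2.2.9, edgeR 3.18.1 and DESeq 1.16.0 stand in the submitters' processing notes, while the sources used here do not name the annotation release or strand setting. In each library 100% of the deposited values were within 0.001 reads of a whole multiple of 1 number, so reads were recovered (17756301 to 21333878 per library; size factors 0.8551 to 1.0728). Of 52636 identifiers, 52489 matched GENCODE M21.

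The main test was limma 3.58.1 (R 4.3.3; intensity trend, two-sided, no covariates) on log2(normalized count + 1) for genes with a mean of at least 10, with Benjamini-Hochberg adjustment over all 19472 genes, called at an adjusted p under 0.05. Residual degrees of freedom were 2 and prior ones 4.54, so the error of each gene rests largely on the spread of all genes. The procedure was tested on simulated data. Alternatives were edgeR 4.0.16 (quasi-likelihood) and DESeq2 1.42.0 on recovered reads, other scalings, pseudocounts and filters, the replicate number as a block, and each library left out. Counting intervals are exact, at 95%, and cover counting error only. Promoter windows are RefSeq, GRCm38.p6.

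The members and lists were chosen with earlier results of these data known. Values per library are given for called members, for 8 members of the 3 sensor branches, for untested members and for the 8 with the largest change, and in other lists for called genes and at most 4 more by smallest p, plus Agr2 and Spdef. A few further genes were named after their values were seen.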

Additional observations from a re-analysis of the deposited data

How the results depend on the processing

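The number of genes called overall was 454 and moved to 56 with no filter on low genes, 6 without the variance trend and 1037 with DESeq2. The number of secretory pathway genes called, 1, was 0 with no filter, 0 with a filter at a mean of 50 (where Ern2 was not tested), 0 without the trend and 2 with DESeq2 (Ern1 and Ern2). Leaving out 1 library at a time gave 2 to 2459 genes called overall and 0 to 4 of the secretory pathway genes: 3 without control 1, 4 without control 2 and 0 without either Yap CKO library. With 1 library left in a group, that library is assumed to vary like the others. The median log2 change of the 39 genes, 0.004, was 0.066 with libraries scaled to equal totals, past the SD of 0.056 between libraries, and -0.043 to 0.042 with a library left out; the median of all genes was 0.0572 under equal totals. The change of Atf6 reversed to 0.012 without control 2 (range over libraries left out -0.144 to 0.012) and that of Trib3 to 0.104 without control 1 (-1.259 to 0.104). The cause of these shifts was not tested beyond the smaller number of samples or the other set of genes that each alternative uses.

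With the replicate number as a block (replicate block), 342 genes were called, and of the members Ern2 alone. Same-numbered libraries did not deviate together (correlation of deviations -0.364), so the numbers give no pairing. Crossing them, an alternative chosen after seeing the data, gave 972 calls, 1 of them a member. Hspa5, Xbp1, Atf4, Eif2ak3 and Ddit3 kept their direction and did not pass in any of 16 alternatives, with adjusted p from 0.352 (Atf4) upward. Ern2 was higher in all 15 that tested it. With 2 libraries a group and controls at 0 and 1 read, the size of its change is poorly known. Its counting interval leaves out the variation between libraries, so it does not bound that size.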
